A study of Mus musculus with 24 samples.

Results

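Krt7, Krt8, Krt18, Cdh1, Epcam, Cldn3, Cldn7, Dsp and Dmkn, 9 of the 30699 genes listed in the deposited tables, make up a set of simple epithelium keratins and junction genes. They were selected on group means in white fat, after epithelial genes had been seen to differ between its groups, so the differences between white fat groups given here describe the choice and are not tested. Differences within brown fat, and between control white and control brown fat, were not used in the choice.

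Libraries were made from fat of C57BL/6 mice, either white adipose tissue (WAT) or brown (BAT). All mice had been given 2 subcutaneous injections of 25 mg/kg of an oligonucleotide modified with locked nucleic acids, which bind RNA tightly. The oligonucleotide was antisense to miR-224 in the antimiR-224 groups, antisense to miR-452 in the antimiR-452 groups and scrambled in the scramblemiR groups, the controls. Each of the 6 groups has 4 libraries, numbered here by descending size factor within a group, and the labels give neither sex nor age and do not say whether each library is a separate mouse. The p-values below therefore measure the spread between these libraries, which may in part be technical. Both inhibitor groups of a tissue are set against the same 4 scramblemiR libraries. Values are normalized counts, the reads of a gene in a library divided by the size factor of that library.

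Simple epithelium lines ducts, tubules and body cavities as a single layer of cells. Its cytoskeleton is built from obligate pairs of a type II keratin (Krt7, Krt8) and a type I keratin (Krt18). Neighbouring cells are held together by the adherens junction cadherin Cdh1 (E-cadherin), sealed by claudins such as Cldn3 and Cldn7, and anchored at desmosomes, where Dsp (desmoplakin) ties keratin filaments to the membrane. Epcam is an adhesion molecule of the epithelial surface that binds Cldn7. Dmkn (dermokine) is a secreted protein known from skin. Adipocytes are mesenchymal cells and are not known for these genes. Visceral fat pads are covered by mesothelium, a flat lining that also has keratins. In bulk tissue, fewer cells of a type and less RNA per cell cannot be told apart.

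The mature sequences of the targeted microRNAs are shown with their seed, bases 2 to 8, in capitals, because a seed match in a transcript is the first thing to look for once a microRNA is inhibited. The labels do not name the arm, and the 5p arms are given. Sequences are from RefSeq (GRCm38.p6), both on chromosome X, minus strand.
mmu-miR-224-5p: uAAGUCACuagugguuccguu
mmu-miR-452-5p: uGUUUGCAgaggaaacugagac
The 2 seeds differ, and so do the matches they call for in a 3′UTR, GTGACTT for miR-224-5p and TGCAAAC for miR-452-5p. In the longest annotated 3′UTR of each gene (GENCODE M21, GRCm38), none of the 9 members held GTGACTT, which 12.3% of 21683 genes hold. A single member, Cdh1, held TGCAAAC, which 9.37% of those genes hold. The Cdh1 site lies in the last exon, in the 3′UTR, at chr8:106669837-106669858 on the plus strand, with the match in capitals.
Cdh1 3′UTR site: accctgtctcTGCAAACcaaaa
For the 3p arms, CACCATT (miR-224-3p) was in none of the 9, beside 8.87% of all genes searched. GAGACTG (miR-452-3p) was in Cdh1 alone, at bases 93 and 776 of its 3′UTR, and in 12.3% of all genes. Such a match is a description of letters and does not show that a site is used.

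Promoters are shown for members with an annotated start that is the same in RefSeq and GENCODE and that hold a motif looked for, since most members varied together across WAT libraries. The search covered the 250 bases before the RefSeq start on both strands, for the 8 members with an entry. Cdh1 had no entry and was not searched, so its absence below says nothing about its promoter. CACCTG, the E-box letters that Zeb and Snail repressors of epithelial genes are known to bind, was before Krt7, Krt8, Krt18 and Epcam, and before 17.1% of 27025 genes. GGGCGG, the GC box, was before Krt7, Epcam, Cldn3 and Dsp, and before 32.9% of genes. TGACTCA, the AP-1 motif, was before Dmkn and 4.43% of genes, while AACCNGTT, CCAAT and TATAAA were before none of the 8. Capitals mark matches on either strand of CACCTG and GGGCGG in Epcam (chr17:87635729-87635978, plus strand), of GGGCGG in Cldn3 (chr5:134985964-134986213, plus strand) and Dsp (chr13:38151044-38151293, plus strand) and of TGACTCA in Dmkn (chr7:30763506-30763755, plus strand), GRCm38.p6. None of these motifs overlap each other in the windows shown.
Epcam promoter: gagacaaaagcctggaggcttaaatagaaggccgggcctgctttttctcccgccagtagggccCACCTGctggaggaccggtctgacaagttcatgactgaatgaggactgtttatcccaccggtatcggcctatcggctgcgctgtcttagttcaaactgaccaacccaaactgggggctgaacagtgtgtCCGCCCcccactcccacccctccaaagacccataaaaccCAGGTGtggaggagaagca
Cldn3 promoter: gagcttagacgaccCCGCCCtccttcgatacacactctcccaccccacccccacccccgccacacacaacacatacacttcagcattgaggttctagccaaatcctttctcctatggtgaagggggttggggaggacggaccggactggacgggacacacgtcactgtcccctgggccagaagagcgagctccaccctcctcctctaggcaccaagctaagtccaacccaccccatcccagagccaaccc
Dsp promoter: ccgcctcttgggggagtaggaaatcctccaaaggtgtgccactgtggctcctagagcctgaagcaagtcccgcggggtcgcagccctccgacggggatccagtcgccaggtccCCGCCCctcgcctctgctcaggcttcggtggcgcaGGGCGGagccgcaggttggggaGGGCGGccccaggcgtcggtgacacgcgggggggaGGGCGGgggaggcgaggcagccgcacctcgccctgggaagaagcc
Dmkn promoter: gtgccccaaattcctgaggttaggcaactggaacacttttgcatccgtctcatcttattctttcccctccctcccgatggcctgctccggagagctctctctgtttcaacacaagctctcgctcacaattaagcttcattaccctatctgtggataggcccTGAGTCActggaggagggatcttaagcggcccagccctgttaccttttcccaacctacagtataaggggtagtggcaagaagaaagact
The Dsp window is rich in G and C (72.4%), against a median of 52.0% over all windows, and holds 4 GC boxes on the 2 strands.

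The scramblemiR libraries held 22175430 to 27935908 reads in genes in WAT and 16960594 to 20255651 in BAT. Adipocyte markers were abundant in every WAT control library, with Fabp4 at 255982 to 452781 and Cidec at 74922 to 146070 normalized counts (control values, each on the scale of its table). All 7 brown adipocyte markers were lower in control WAT than in control BAT. WAT libraries differed in markers of other tissues. Summed normalized counts are given with the number of markers recovered. The sum over 11 of 12 male germ cell markers reached 32208 in scramblemiR library 2, 9318 in antimiR-224 library 3 and 2528 in antimiR-224 library 4, and was 13.3 to 855 in the other 9 libraries. The sum over 11 of 16 epididymis markers was 4854 in antimiR-224 library 2, 1292 in antimiR-452 library 1 and 444 in scramblemiR library 2, against 4.42 to 168 elsewhere.

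In WAT, 8 of the 9 members were highest in the same 5 of 12 libraries, antimiR-224 libraries 1 and 2 and antimiR-452 libraries 1, 2 and 3. This set of 5 libraries was also the highest for 1286 of the 14661 genes with reads recovered in all 12 libraries and a mean of at least 10 (8.77%). The exception among the members was Krt7. For the other members, both inhibitor groups thus held libraries with high values and libraries within or below the control range, except that every antimiR-224 library lay above the controls for Dmkn. In every member but Krt7, antimiR-452 library 4 stood far below the other 3 libraries of its group, and so did antimiR-224 libraries 3 and 4 below libraries 1 and 2.

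Krt8, the type II keratin of nearly all simple epithelia, was at 104, 182, 270 and 488 normalized counts in scramblemiR libraries 1 to 4. It was at 2200, 3188, 421 and 226 with antimiR-224, and at 1217, 2326, 1899 and 264 with antimiR-452. The 2 low antimiR-224 libraries and the low antimiR-452 library lay inside the control range, so both inhibitor groups overlapped the controls. The difference of mean log2(normalized count + 1) from scramblemiR was 2.01 ± 0.87 (SE) with antimiR-224 and 2.28 ± 0.71 with antimiR-452, 4 libraries per group.

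Krt18, the type I partner of Krt8, was at 144, 257, 199 and 612 normalized counts in scramblemiR libraries 1 to 4. It was at 1998, 2928, 474 and 341 with antimiR-224 and at 1037, 2235, 1633 and 263 with antimiR-452. Libraries high or low in Krt8 were high or low in Krt18. The Krt8 count divided by the Krt18 count stayed between 0.66 and 1.36 in the 12 WAT libraries, while Krt8 itself differed 30.8-fold between its highest and lowest library and Krt18 20.3-fold. The genes lie on chromosome 15 (GRCm38), Krt8 at chr15:101996698-102004482 on the minus strand and Krt18 at chr15:102028180-102032027 on the plus strand, with annotated starts 23698 bases apart. Krt7 lies on the same chromosome at chr15:101411043-101430313, at the other end of a stretch with 25 keratin genes.

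Krt7, a type II keratin of ducts and mesothelium, did not follow the other members. It was at 260, 317, 468 and 147 normalized counts in scramblemiR libraries 1 to 4. It was at 304, 324, 882 and 531 with antimiR-224 and at 286, 108, 285 and 439 with antimiR-452. Its highest value was in antimiR-224 library 3, which was not among the 5 libraries highest in the other members, and its lowest was in antimiR-452 library 2, where Krt8 was 2326. The Krt7 count divided by the Krt8 count ranged from 0.047 in antimiR-452 library 2 to 2.51 in scramblemiR library 1.

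The sum over mesothelium markers moved with Krt7. With 5 of 13 markers recovered in all 12 libraries, the sum was 9078 in antimiR-224 library 3, 658 in scramblemiR library 4 and 1249 in antimiR-452 library 2, and between 2908 and 4538 in the other 9. The markers with the highest WAT means were Upk3b and Gpm6a, at 709 and 287 in scramblemiR library 4 against 4828 to 7055 and 1517 to 2808 in the other 3 controls. Over the 12 libraries the log2 sum and log2 Krt7 had a Pearson r of 0.92, as a description of libraries that share their normalization. The part of mesothelium in the Krt7 values was not tested.

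**Figure D1:**
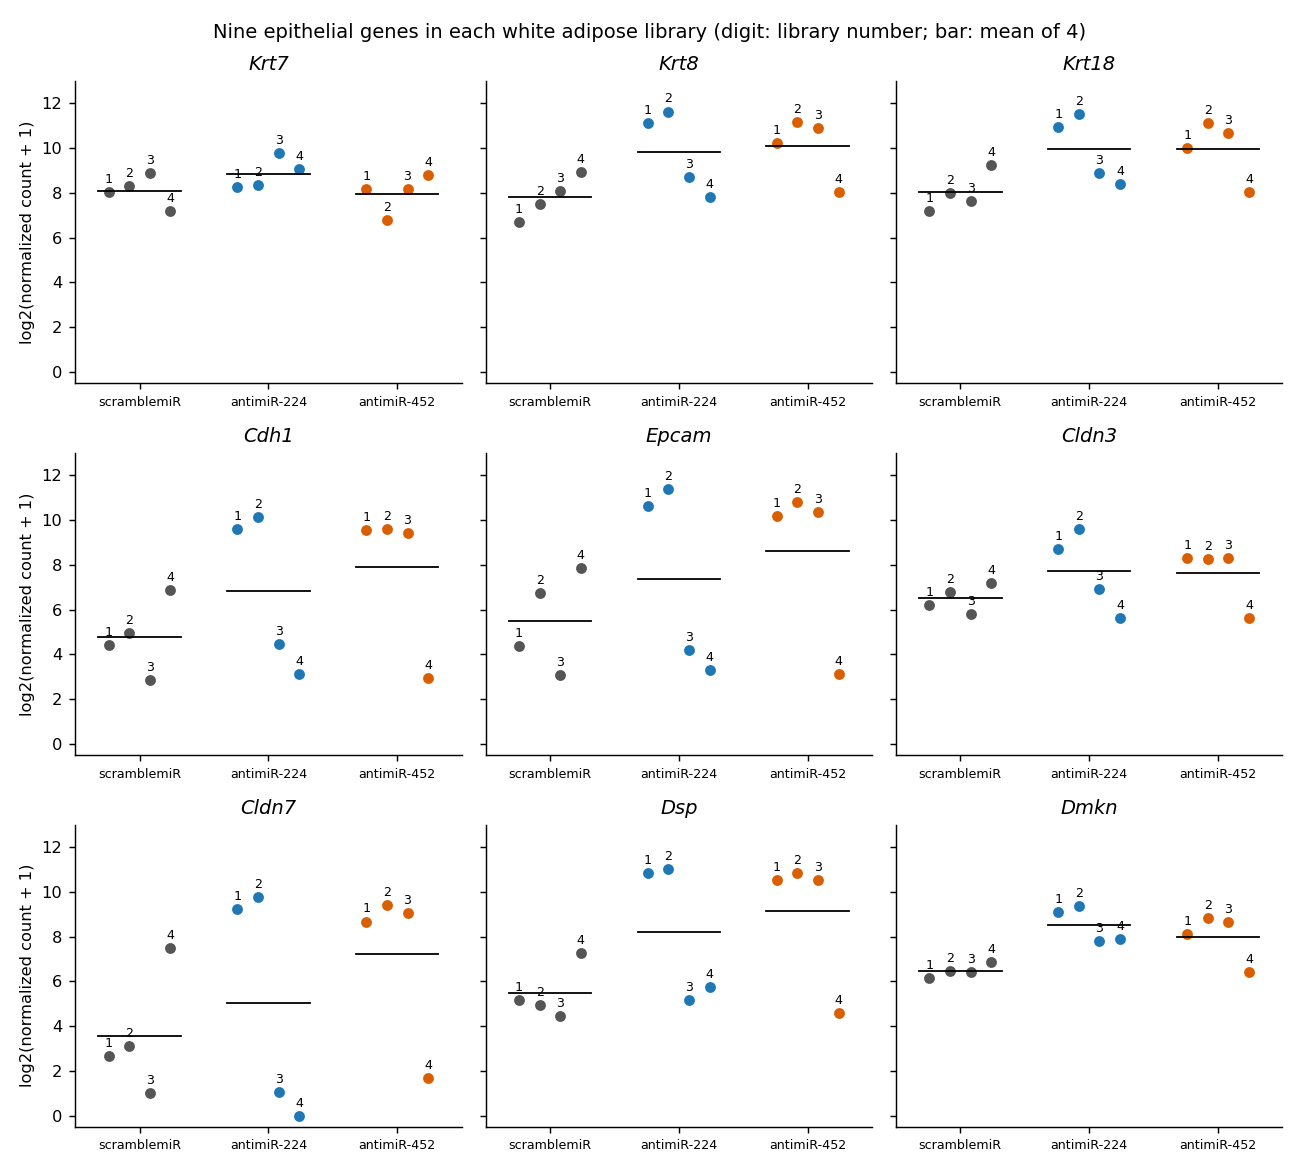
Normalized counts of the 9 members in each WAT library, as log2(normalized count + 1) on the vertical axis, by treatment group on the horizontal axis. Each point is a library with its number and the bar is the mean of 4 libraries. For every gene but Krt7 the highest points are antimiR-224 libraries 1 and 2 and antimiR-452 libraries 1, 2 and 3.

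The adhesion genes Cdh1 and Epcam fell into high and low libraries. Cdh1, at chr8:106603351-106670246, was at 20.4, 30.1, 6.25 and 117 normalized counts in scramblemiR libraries 1 to 4. It was at 764, 1107, 20.7 and 7.76 with antimiR-224 and at 750, 780, 690 and 6.66 with antimiR-452. Thus 5 libraries lay between 690 and 1107 and the other 7 between 6.25 and 117, with scramblemiR library 4 highest among the 7. The seed match described above, to miR-452-5p, is in this gene, and whether it has a part in these values was not tested.

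Epcam, at chr17:87635979-87651129, was at 19.5, 107, 7.30 and 233 normalized counts in scramblemiR libraries 1 to 4. It was at 1576, 2668, 17.5 and 8.87 with antimiR-224 and at 1154, 1801, 1317 and 7.77 with antimiR-452. The highest library was 366 times the lowest. Log2 values of Cdh1 and Epcam had the highest Pearson r of any pair of members over the 12 WAT libraries, 0.99. Their ratio was less even than that of Krt8 and Krt18, with an Epcam count of 0.84 to 3.56 times the Cdh1 count.

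Both claudins were high in the same 5 libraries, and their lower values differed in kind. Cldn3, at chr5:134986214-134987472, was at 72.6, 110, 55.2 and 146 normalized counts in scramblemiR libraries 1 to 4, at 420, 779, 121 and 47.7 with antimiR-224 and at 318, 308, 315 and 48.8 with antimiR-452. Cldn7, at chr11:69964779-69967885, was at 5.31, 7.52, 1.04 and 180 in the controls, at 597, 864, 1.09 and 0 with antimiR-224 and at 407, 682, 531 and 2.22 with antimiR-452. Cldn3 was thus found in every library, while Cldn7 had 0 to 8 reads in 6 of the 12. The Cldn7 count was 1.11 to 2.21 times the Cldn3 count in the 5 high libraries and 1.24 times in scramblemiR library 4, and at most 0.073 times in the other 6.

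Dsp, at chr13:38151294-38198577, was at 35.4, 30.1, 20.8 and 153 normalized counts in scramblemiR libraries 1 to 4. It was at 1843, 2097, 34.9 and 52.1 with antimiR-224 and at 1473, 1857, 1452 and 23.3 with antimiR-452. Of all members it had the widest gap between the fifth and the sixth highest library, 9.50-fold. The Dsp difference of mean log2 values was 2.73 ± 1.44 (SE) with antimiR-224 and 3.65 ± 1.35 with antimiR-452, 4 libraries per group.

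Dmkn, at chr7:30763756-30781063, was at 70.8, 86.5, 83.4 and 114 normalized counts in scramblemiR libraries 1 to 4. It was at 544, 658, 220 and 238 with antimiR-224 and at 274, 453, 396 and 84.4 with antimiR-452. The antimiR-224 group did not overlap the controls, the sole such case among the 9 members in either inhibitor comparison. Of all 15429 genes with a mean of at least 10 in that comparison, 1.72% had all 4 antimiR-224 libraries above all 4 controls, and with antimiR-452 the share was 0.95% of 15051. The Dmkn difference was 2.07 ± 0.38 (SE) with antimiR-224 and 1.52 ± 0.49 with antimiR-452. Without antimiR-224 libraries 1 and 2 it was 1.38.

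ScramblemiR library 4 was the sixth highest of 12 libraries for 7 members, all but Krt7 and Dmkn. In that library Krt7 and the mesothelium markers were low. Among the 28 pairs of members without Krt7, Pearson r of log2 values over the 12 WAT libraries ran from 0.71 (Cldn7 and Dmkn) to 0.99, with a median of 0.93. The 8 pairs with Krt7 ran from -0.68 (Cldn7) to -0.16 (Dmkn). These values describe 12 libraries from 3 groups and carry no test.

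Over the 9 members, the median difference in WAT was 1.92 with antimiR-224, beside 0.02 over all 15429 genes fitted, and 2.28 with antimiR-452, beside -0.04 over all 15051. Members above 0 numbered 9 of 9 with antimiR-224 and 8 of 9 with antimiR-452, Krt7 being at -0.15. The limma test, fitted across all genes, called 0 genes in either comparison at an adjusted p under 0.05 (0% of all genes), with 930 and 691 genes at an unadjusted p under 0.05. In the authors' deposited table for antimiR-224, 1 of 29128 genes (0.00343%) passed that threshold, and in that for antimiR-452 0 of 29079 did. None of the members did in either.

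Single libraries moved these values. Without antimiR-452 library 4, the library with control-like levels, limma called 519 of 15128 genes (3.43%), 516 of them higher (3.41%), where 0 were called with all libraries. Leaving out any other single library called 0 genes in either comparison. The library was singled out after its low values were seen, so these calls describe its removal and are no test of the inhibitor. Without antimiR-224 libraries 1 and 2 the median difference of the members was -0.016, with Cldn7 at -3.04, Epcam at -1.75 and Cdh1 at -0.99. With antimiR-452 library 4 alone set against the controls it was -0.87. Without antimiR-224 library 2 alone the median was 0.94, and without library 1 alone 1.12.

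**Figure D2:**
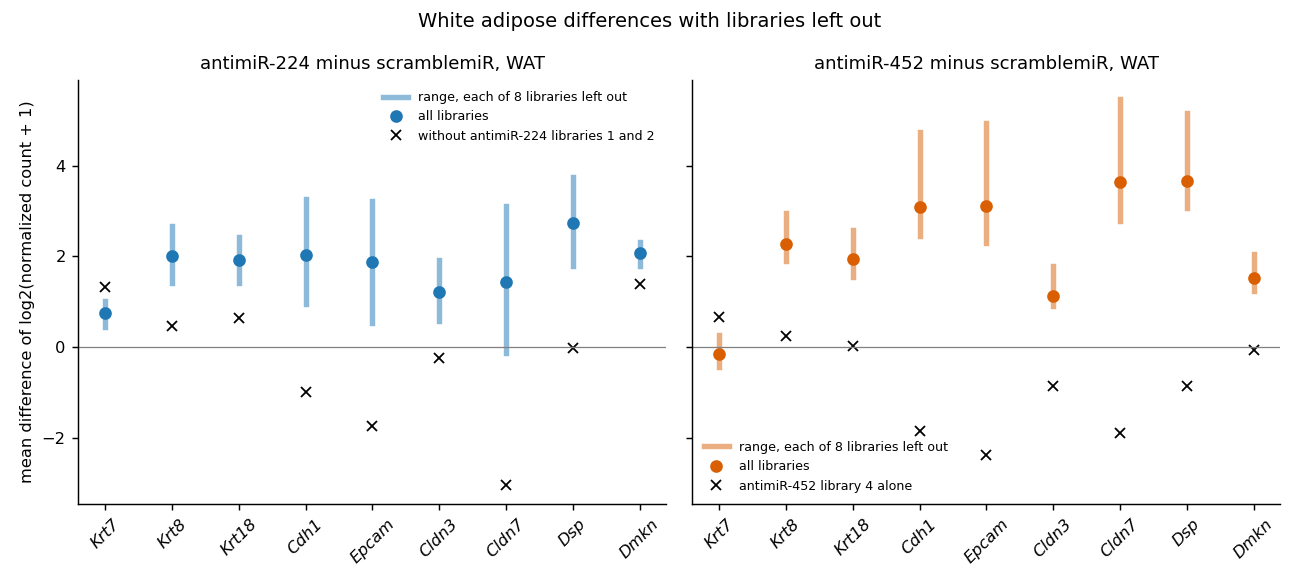
Difference of mean log2(normalized count + 1) between each inhibitor group and scramblemiR in WAT, by gene. Points are all libraries, bars the range over leaving out each of 8 libraries, and crosses the difference without antimiR-224 libraries 1 and 2 (left) or with antimiR-452 library 4 alone (right). For Cdh1, Epcam, Cldn3, Cldn7 and Dsp the crosses lie below 0 in both panels.

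Other epithelial genes, grouped into lists, varied with the members to different degrees in WAT. Of the genes of each list with reads recovered and a mean of at least 10, the 5 highest libraries were those of the members for 9 of 16 tight junction genes, 3 of 7 adherens junction genes and 3 of 6 desmosome and cornified envelope genes. They were the same for 7 of 9 epithelial membrane and protease genes and 4 of 9 epithelial transcription and splicing regulators, beside 8.77% over all genes. None of 2 stratified epithelium keratins and none of 4 repressors of epithelial genes had that order. No member is in these lists.

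Markers of other cell types were high in the same libraries as the junction genes. The sum over 12 of 12 markers of acid and ion transporting tubules was 1302 to 2208 in the 5 high libraries and 104 to 375 in the other 7. Its most abundant gene in WAT was Slc26a3, a chloride and bicarbonate exchanger, at 902, 1256, 2.18 and 7.76 normalized counts across the antimiR-224 group. The sum over 16 of 17 motile cilium markers was 6721 to 11284 in the 5 libraries and 379 to 2092 in 6 others, but scramblemiR library 2, low in Dsp, had 6318. That library also had the highest sum over male germ cell markers, 32208, and whether both sums share a source was not tested. The sum over 6 of 7 oviduct and uterus markers was 600 to 1385 in the 5 libraries and 31.1 to 215 in the other 7. Most of it was Pax8, at 585 of 869 and 1019 of 1385 in antimiR-224 libraries 1 and 2. Sprr2f of this list was at 0 or not listed in WAT. Of 3 genes of the list with a mean of at least 10, 2 were highest in the same 5 libraries.

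Other marker lists did not have that order. The epididymis sum was 69.7 to 4854 in the 5 libraries and 4.42 to 444 in the rest, with 4 of 16 markers listed at 0 or not listed in WAT (Lcn5, Lcn10, Adam28 and Defb21). The other 12 were listed. The most abundant of them was not recovered in every library and is not in the sum. Its deposited WAT means were 136 with scramblemiR, 5000 with antimiR-224 and 740 with antimiR-452. The defining caseins Csn1s1, Csn1s2a and Csn2 of the mammary gland list and Svs2, Svs3a, Svs4 and Pbsn of the seminal vesicle and prostate list were likewise at 0 or not listed. The other 9 mammary gland markers and the other 4 seminal vesicle and prostate markers were listed. Sums over mammary gland markers were 971 to 3410 in the 5 libraries and 988 to 1755 in the others, and over epidermis and hair follicle markers 51.4 to 72.9 and 47.7 to 132. The sum over 4 of 5 repressors of epithelial genes was 1425 to 2019 in the 5 libraries and 1802 to 2237 in the other 7. What part other tissues had in the member values was not tested.

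**Figure D3:**
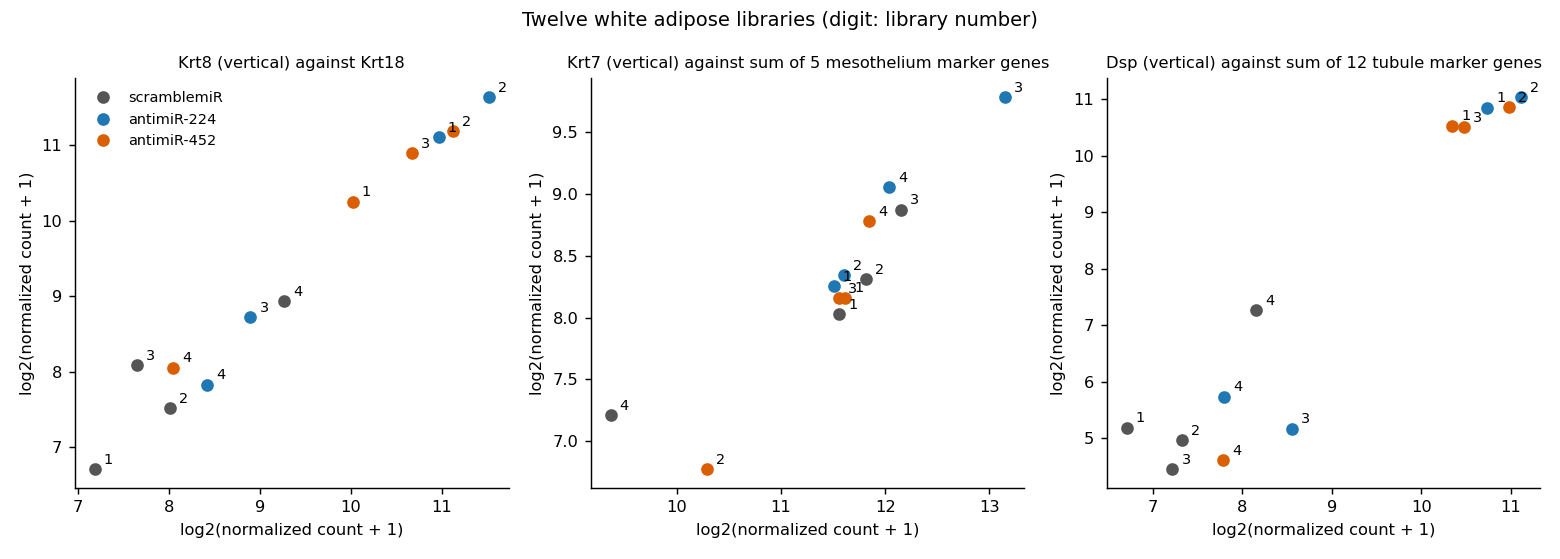
Log2(normalized count + 1) in the 12 WAT libraries: Krt8 against Krt18, Krt7 against the summed mesothelium markers and Dsp against the summed tubule markers. Points are libraries, coloured by group and numbered. Krt8 and Krt18 lie along a line, Krt7 follows the mesothelium sum, and in the right panel 5 libraries stand apart at Dsp counts of 1452 to 2097.

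Genes with the pattern most like each member over the 12 WAT libraries, by Pearson r of log2 values among 14661 genes, differed between Krt7 and the rest. For Krt7 they were P3h4, Mpp6 and Aldh1a2, with r of 0.96. For Krt8 they were Tspoap1, Eps8l2 and Scnn1a, a subunit of the epithelial sodium channel, and for Krt18 Calml4, Tmem37 and Slc16a13, with r of 0.98 to 0.99. For Cdh1 they were Rsph4a, a radial spoke protein of motile cilia, Togaram2 and Celsr1, and for Epcam they included Fam131c and Mapk15, with r of at least 0.99. For Cldn3 they were Abo, Klhl14 and Cutal (0.97 to 0.98), for Cldn7 Chad, Cdhr5 and Sectm1b (0.99), for Dsp Ghrhr, Gm10636 and Acpp (at least 0.99), and for Dmkn Bmp7, Trim2 and 2310030G06Rik (0.96 to 0.98). Rsph4a was at 0 to 770 normalized counts and Scnn1a at 77.9 to 1407. These are the highest of many correlations and the libraries share their normalization.

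Control tissues were compared without any inhibitor library, with the reads of the 4 WAT and 4 BAT scramblemiR libraries scaled together. The deposited headers give 2 of the 4 controls of each tissue a number that the other tissue also has. These may be the same mice, but the recovered libraries cannot be tied to the numbers, and the fit treats all 8 as independent. Krt8, Krt18, both claudins and Dsp were near the limit of detection in BAT, and Krt7 was not. Krt8 had a mean of 193 ± 123 normalized counts in WAT (SD, n = 4) and 0.31 ± 0.62 in BAT, where a single read was found in the 4 libraries. Krt18 had 223 ± 156 and 0.99 ± 0.66, and Krt7 had 220 ± 100 and 22.1 ± 7.75. The lowest WAT library exceeded the highest BAT library for each of the 3 keratins.

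By the limma test with Benjamini-Hochberg adjustment over all 16817 genes, Krt8 was higher in WAT by 7.08 ± 0.58 on the log2(normalized count + 1) scale (SE, adjusted p 2.6e-05) and Krt18 by 6.68 ± 0.54 (2.4e-05). Krt7 was higher by 3.21 ± 0.41 (limma adjusted p 0.00024). These sizes depend on the pseudocount of 1 where BAT has almost no reads. Krt8 and Krt18 passed the minimum mean through WAT alone, and their p-values are a description. In the same test 42% of all genes passed, 22.1% higher in WAT and 19.9% lower.

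Of the other members, Cldn3, Dsp, Epcam and Dmkn were also higher in WAT. Cldn3 was at 70.6 ± 29.6 in WAT and 1.0 ± 1.2 in BAT (log2 difference 5.28 ± 0.63, limma adjusted p 0.00017). Dsp was at 44.1 ± 46.0 and 0.99 ± 1.22 (4.26 ± 0.82, limma adjusted p 0.0025), and Epcam at 67.5 ± 76.9 and 1.67 ± 0.55 (3.70 ± 0.98, limma adjusted p 0.013). Dmkn was at 65.3 ± 13.3 and 11.6 ± 4.76 (2.44 ± 0.35, limma adjusted p 0.0005), the most even member in the WAT controls.

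Cdh1 and Cldn7 did not pass the threshold. Cdh1 was at 15.04, 21.8, 4.65 and 86.5 in WAT libraries 1 to 4 and at 11.2, 5.12, 1.43 and 0 in BAT, and the tissues overlapped (log2 difference 2.49 ± 1.02, limma adjusted p 0.075). Cldn7 was at 3.92, 5.46, 0.776 and 133 in WAT and had 0 reads in all 4 BAT libraries (limma adjusted p 0.090). Set against a floor of 3 reads over the BAT group, its WAT mean was at least 35.4-fold higher, a value carried by WAT library 4 and covering counting error only. Cdh1 passed without WAT library 3 (limma adjusted p 0.041) and without BAT library 1 (0.047).

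Groups of the 2 tissues did not overlap for 8 of 9 members, all but Cdh1, and 21.4% of all genes had all 4 WAT libraries above all 4 BAT libraries. The BAT mean alone would have passed the minimum of 10 for Krt7 and Dmkn, and the other 7 members entered the test through WAT. The number of these 7 that passed is therefore no measure of the set, and their p-values are a description. ScramblemiR library 4, the WAT control in which the junction genes were highest, mattered for size. Without it Epcam was higher in WAT by 2.92 and Krt8 by 6.71 (limma), and Cdh1, Cldn7 and Dsp fell below the minimum mean and were not tested.

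**Figure D4:**
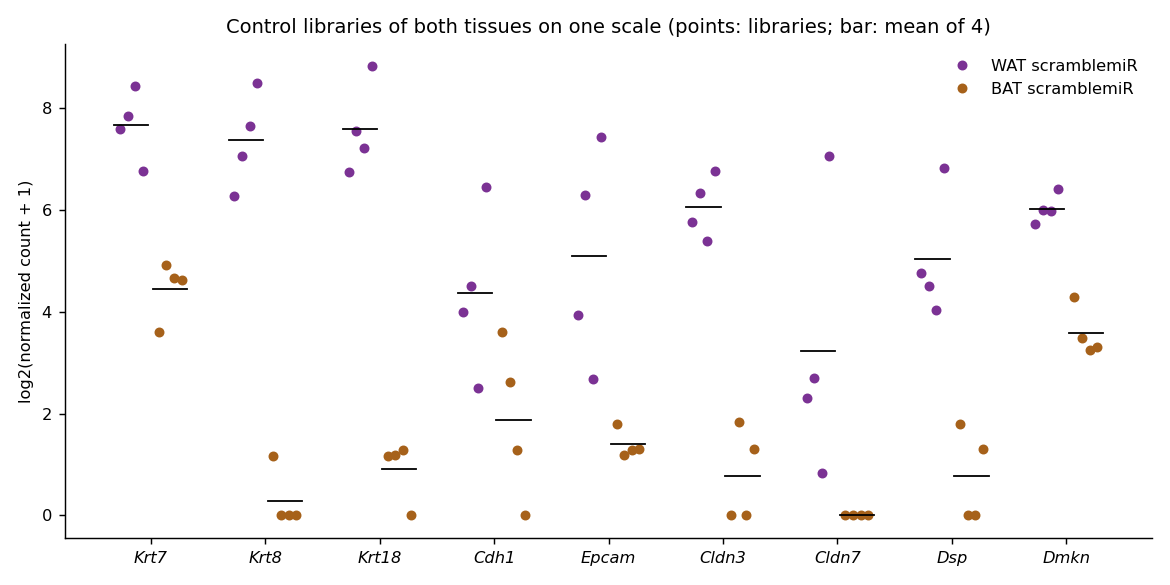
Normalized counts of the 9 members in the scramblemiR libraries of WAT and BAT, scaled together, as log2(normalized count + 1) on the vertical axis. Points are libraries and bars means of 4 libraries. Krt8 and Krt18 are widest apart, and for Cdh1 alone the points of the tissues overlap.

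Per 1000 bases of annotated exon, the order of mean levels in the WAT controls was Krt18 (211 ± 147 normalized counts, SD, n = 4), Krt8 (133 ± 84.8), Cldn3 (76.2 ± 32.1), Krt7 (72.8 ± 32.6), Epcam (44.5 ± 50.5), Dmkn (40.4 ± 8.24), Cldn7 (32.9 ± 59.5), Cdh1 (9.81 ± 11.3) and Dsp (6.23 ± 6.49). Neighbours in this order differed by less than the larger of their SDs. In the BAT controls Krt7 and Dmkn led, at 4.03 ± 1.43 and 3.93 ± 1.62, and the other 7 were at 0.75 or less.

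Related genes also differed between control tissues, where 42% of all genes passed, 22.1% higher in WAT and 19.9% lower. Among 4 other simple keratins, 2 were tested and both were higher in WAT, Krt19 by 6.71 ± 0.49 (681 ± 278 against 5.97 ± 3.61 normalized counts) and Krt80 by 1.42 ± 0.48, in log2 units with limma adjusted p of 1.5e-05 and 0.038. Krt19 is also a mesothelium marker. Of 8 stratified epithelium keratins, 1 had enough reads and did not pass. All 6 tested genes of 11 in the desmosome and cornified envelope list were higher in WAT, among them the plakophilin Pkp3 (3.20 ± 0.90, limma adjusted p 0.017) and envoplakin Evpl (3.08 ± 0.31, 6.6e-05). A gene with few reads in BAT entered the test only where it was high in WAT. The numbers that passed in these lists are therefore no measure of the lists. Krt80 did not pass without WAT library 1, 2 or 3 or BAT library 2, 3 or 4 (limma adjusted p 0.056 to 0.095), nor Pkp3 without WAT library 4 (0.057). Krt19 and Pkp3, at BAT means of 5.97 and 4.82, passed the minimum mean through WAT alone, and their p-values are a description.

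Tight and adherens junction genes went both ways, as did all genes, of which 22.1% were higher in WAT and 19.9% lower. In the tight junction list 4 of 12 tested genes were higher in WAT and 1 lower, with cingulin Cgn 6.70 ± 0.64 higher and Cldn10 5.14 ± 0.57 higher (limma adjusted p 5.2e-05 and 0.00011). In the adherens junction list 4 of 10 were higher and 1 lower, with P-cadherin Cdh3 6.29 ± 0.52 higher (limma adjusted p 2.6e-05). The lower gene was Nectin2, at 550 ± 122 normalized counts in WAT and 2459 ± 914 in BAT (-2.11 ± 0.27, limma adjusted p 0.00023). Cgn, Cldn10 and Cdh3 had BAT means of 0.95, 2.40 and 0.31. They passed the minimum mean through WAT alone, so their p-values are a description and their sizes depend on the pseudocount. The numbers higher in these lists are likewise no measure of the lists.

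The regulators that passed went both ways, and over all genes 42% passed, 22.1% higher in WAT and 19.9% lower. Of 6 tested epithelial transcription and splicing regulators, 1 passed as higher and 1 as lower. Differences were above 0 for 5 of the 6, with a median of 1.67. Grhl1 was higher in WAT by 1.66 ± 0.35 (limma adjusted p 0.0042) and the splicing factor Esrp2 lower (-1.94 ± 0.34, 0.0015). Of 7 tested membrane and protease genes, 3 were above 0 (median -0.10), and with scaling by total reads 8 of 9 were (median 0.79). The protease inhibitor Spint2 was higher (1.66 ± 0.40, limma adjusted p 0.0081) and the motor Myo5b lower (-2.63 ± 0.39, 0.00068). Among 5 repressors of epithelial genes, Zeb2 was higher in WAT by 1.33 ± 0.19 and Twist1 by 0.61 ± 0.20 (limma adjusted p 0.00044 and 0.030). Twist1 did not pass without WAT library 1, 3 or 4 or BAT library 1, 2 or 4 (limma adjusted p 0.051 to 0.085). Zeb1, named because it was the 1 repressor that was lower, was at -0.60 ± 0.15 (limma adjusted p 0.0087). With scaling by total reads Zeb1 was at -0.07 and did not pass (limma adjusted p 0.69), while Snai1 passed as higher as well, so that 3 of the 5 repressors were higher and 0 lower.

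All 13 of 13 mesothelium markers, 6 of 14 tested motile cilium markers and 2 of 4 tested tubule markers were higher in control WAT, and none of these lists had a lower gene. Over all genes, 22.1% were higher and 19.9% lower. Genes with few reads in BAT could enter the test through WAT alone, so these counts are no measure of the lists. The summed mesothelium markers in BAT were 451 to 521 normalized counts in the 4 controls. Scaling by total reads in place of median ratios moved the median log2 difference of all genes from 0.08 to 0.61. It moved the split of called genes from 3717 higher and 3352 lower (52.6% higher) to 7290 and 1650 (81.5% higher). The members that passed were still higher in WAT, Cdh1 passed as well (limma adjusted p 0.035), and the tight junction list then had 6 higher and 0 lower genes.

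In BAT, no member that could be tested passed the threshold in either inhibitor group. Of the 12206 genes tested for antimiR-224 and the 12696 for antimiR-452, limma called 0 (0%) in either comparison, with 677 and 533 genes at an unadjusted p under 0.05, and the authors' deposited tables held 0 genes at an adjusted p under 0.05 (0%). With a minimum mean of 10, Krt7 and Dmkn were tested for antimiR-224 and Krt7 for antimiR-452. With no minimum, all 9 were tested and limma called 0.

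Krt7 in BAT had 9, 23, 17 and 16 reads in scramblemiR libraries 1 to 4, a mean of 16.5 ± 5.86 normalized counts (SD, n = 4). It had 10, 35, 6 and 54 reads with antimiR-224 (26.8 ± 26.3), and the antimiR-452 libraries had 0, 22, 6 and 25 (13.3 ± 12.3). All groups overlapped, while 2.21% of all genes tested had all 4 antimiR-224 libraries, and 1.76% all 4 antimiR-452 libraries, above all 4 controls. The log2 difference was 0.21 ± 0.69 (SE) with antimiR-224 (limma adjusted p 0.93) and -1.05 ± 0.99 with antimiR-452 (0.99), differences that 4 libraries of this spread cannot resolve.

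Dmkn in BAT had 15, 8, 6 and 6 reads in scramblemiR libraries 1 to 4, a mean of 8.62 ± 3.55 normalized counts (SD, n = 4). It had 56, 1, 0 and 14 reads with antimiR-224 (15.5 ± 20.9), and the antimiR-452 libraries had 28, 0, 5 and 1 (7.51 ± 11.2). The inhibitor libraries lay both above and below the controls. The log2 difference with antimiR-224 was -0.58 ± 1.15 (limma adjusted p 0.88), while the ratio of means in the authors' deposited table had the other sign (log2 ratio 0.84, adjusted p 1).

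Cdh1 in BAT had 9, 4, 1 and 0 reads in the controls. Its reads were 26, 0, 0 and 0 in the antimiR-224 group, then 18, 0, 0 and 1 in the antimiR-452 group. In each group library 1 had the most, as it did for Dmkn, and most other libraries had none. Library 1 is by its numbering the library with the largest size factor of its group, and the number does not link libraries of different groups. The tubule list sum was also highest in library 1 of each group, at 338, 217 and 824, with scramblemiR library 2 at 323 and the other 8 at 0 to 40.3. Nearly all of it was Slc9a2, a sodium and hydrogen exchanger named here after its values were seen, at 331, 212 and 823 in those libraries. The tubule markers Atp6v1b1, Atp6v1g3 and Foxi2 were at 0 or not listed in BAT. Whether these values share a source was not tested.

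The other 6 members were at or near 0 in BAT. Summed over the 4 controls, then the 4 libraries of antimiR-224 and the 4 of antimiR-452, Krt8 had 1, 0 and 2 reads. Krt18 had 3, 5 and 6 reads, Cldn3 3, 5 and 9, and Epcam 5, 0 and 5. Cldn7 had 0, 1 and 11 reads, of which 10 were in antimiR-452 library 3, and Dsp had 3, 0 and 5. In that library Epcam had all 5 reads of its group. A group with 0 reads allows a mean of up to 0.75 normalized counts in scramblemiR and 0.72 with either inhibitor at 3 reads over its 4 libraries, for counting error only, and no difference was detectable at this depth.

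**Figure D5:**
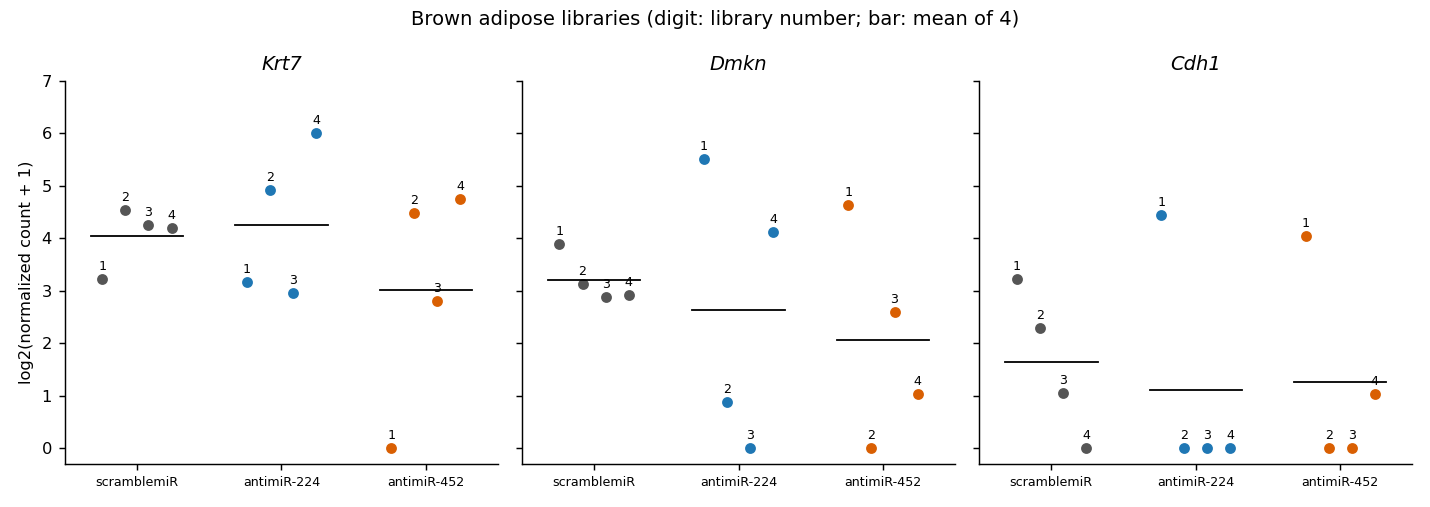
Krt7, Dmkn and Cdh1 in each BAT library, as log2(normalized count + 1) by treatment group. Points are libraries with their number and bars are means of 4 libraries. Library 1 is the highest of its group for Dmkn and Cdh1 in all 3 groups, and no group is separate from another.

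The 5 libraries with high junction genes in WAT have no counterpart in BAT. The highest BAT library of any group held 20.8 normalized counts of Cdh1 and 5.02 of Epcam, beside 1107 and 2668 in the highest WAT library. Libraries of the 2 tissues cannot be matched to each other here, and each tissue was normalized separately in these values.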

How the data were processed

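Poly(A)-selected RNA of 24 libraries was sequenced. The authors deposited 4 tables, made with DESeq 1.10.1 in R 2.15.3 on GRCm38.p4 per the submitters' processing notes, and the aligner is not given in the sources used here. Per the file headers, a table holds per gene the mean normalized count of each group (a signal), their ratio or fold change, its log2 and p-values deposited by the authors, each table normalized separately. Reads per library were recovered by decoding the printed 15 digits into whole reads and size factors. All 9 members were recovered in 24 libraries. Of listed genes, 90.32% to 91.85% had a unique solution in inhibitor groups. Means over 2500 were not decoded, and 816 to 1295 genes per group at lower means had no unique solution. Rebuilt means matched within a relative error of 5.1e-15, and the decoding was tested on simulated data. Libraries of a group differed beyond sampling noise (chi-square per degree of freedom at least 13.0).

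Limma 3.58.1 (R 4.3.3, trend and robust variance, tested on simulated data) was run on log2(normalized count + 1) for genes with a mean of at least 10, with Benjamini-Hochberg adjustment over all genes and a threshold of 0.05. Fold changes on this scale understate low genes. Controls of both tissues were rescaled together by median ratios. Tests made for counts were not run.

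Members and gene lists were chosen with earlier results of these data known. Named beside the 9 members were the 2 genes of each epithelial list with the largest change past the threshold between control tissues, the 3 genes most like each member, the most abundant markers of a cell type, and any list gene called in BAT, of which there were 0. Symbols came from the reference for 99.4% of identifiers. Alternatives were a pseudocount of 0.5 or 5, a minimum mean of 0 or 50, ordinary variance moderation, scaling by total reads, the deposited ratios, and leaving out libraries. Some genes that the rule for named genes or a marker list would give are not reported here.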

Additional observations from a re-analysis of the deposited data

Results flagged for a closer look

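A library was set apart where its gap to the nearest library of its group, on log2(normalized count + 1), exceeded Dixon's critical share of the range of the 4, which chance gives in about 1 of 20 groups. Of 50 member and group combinations with any variation, 12 had such a library, and the members are not independent of each other. The rate of 1 in 20 does not hold for groups with very few reads. Where 3 libraries had 0 reads, any read in the fourth set it apart, so the 12 cannot be held against that rate.

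In WAT, antimiR-452 library 4 was below the other 3 of its group for Cdh1 (6.66 normalized counts), Epcam (7.77), Cldn3 (48.8), Cldn7 (2.22) and Dsp (23.3). The same library held the lowest sums of its group for motile cilium markers (379) and tubule markers (220), and the highest for mesothelium markers (3676). Their part in these values was not tested.

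In BAT, most of the libraries set apart rest on very few reads. Cdh1 was highest in antimiR-224 library 1 (20.8, from 26 reads against 0 in the other 3). Krt8 was highest in scramblemiR library 1 (0.924, 1 read) and antimiR-452 library 3 (2.01, 2 reads). Epcam was highest in scramblemiR library 1 (1.85, 2 reads) and antimiR-452 library 3 (5.02, 5 reads). Cldn7 was highest in antimiR-224 library 3 (1.13, 1 read), and Krt18 was lowest in scramblemiR library 4 (0, against 1 read in each other control).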

How the results depend on the processing

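No paired analysis was possible because recovered libraries cannot be tied to the numbers in the sample titles or headers, and no fit with a replicate block was run. In WAT, leaving out each library gave a median difference of the members of 0.94 to 2.68 with antimiR-224 and 1.91 to 2.96 with antimiR-452. Without antimiR-224 libraries 1 and 2 it was -0.016, and with antimiR-452 library 4 alone -0.87, both chosen after seeing the data, by construction a comparison of the control-like libraries. Between control tissues, 6 to 8 members passed with each library left out, beside 35.1% to 40.8% of all genes, and 3 of 3 tested with a minimum mean of 50, beside 45.8%. Most of these members passed the minimum through WAT alone. Both BAT comparisons called 0 members under the alternatives run, and a minimum mean of 50 left no member to test. In BAT, Krt7 with antimiR-224 ran from -0.37 to 0.64 as each library was left out. Dmkn ran from -1.07 to 0.30 in 7 such fits and fell below the minimum mean without antimiR-224 library 1, where the difference of means was -1.54, and the authors' deposited ratio for Dmkn was 0.84. Depth limits 6 members in BAT, where few or no reads were found. Highly abundant genes of the inhibitor groups, and some at lower means, were not recovered and are missing from the counts over all genes.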
